A study of Mus musculus with 22 samples.

Results

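The 8 genes described here encode the major histocompatibility complex (MHC) class II antigen presentation apparatus and its master regulator. Ciita encodes the coactivator without which class II genes are hardly transcribed. H2-Aa and H2-Ab1 encode the alpha and beta chain of the I-A molecule, and H2-Eb1 encodes the beta chain of I-E. Cd74 encodes the invariant chain, which occupies the peptide groove of newly made class II molecules. H2-DMa, H2-DMb1 and H2-DMb2 encode the chains of H2-DM, which exchanges the last fragment of the invariant chain for an antigen peptide. The genes were chosen by name and matched to the counts by their Ensembl identifiers, which gave 8 of 54838 genes.

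Class II molecules are displayed by dendritic cells, macrophages and B cells, which present antigen to CD4+ T cells, and enterocytes of the small intestine also carry them. Interferon-gamma is the classical inducer. It acts through Jak1, Jak2 and Irf1 on a promoter of Ciita, and the Ciita protein then binds to a complex of RFX, CREB and NF-Y proteins that sits on the X and Y boxes of class II promoters. Because several kinds of cell can supply class II RNA, its source in gut tissue cannot be read from the total alone.

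Bulk RNA-seq was performed on small intestine of female mice of 8 to 14 weeks, bred as intercrosses on an FVB/NJ background and labelled FVB/N. GRWT mice carry the wild-type glucocorticoid receptor, and GRDim mice carry in all cells a point-mutated receptor that dimerises poorly. For 7 days the mice received drinking water that was either normal or held 25 mM ZnSO4, and the study compared the genes that zinc changes in the gut of both genotypes. The 22 libraries are labelled ileum or IEC, for intestinal epithelial cells, of which the latter were scraped from the flushed inner wall.

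The tissue labels did not follow the muscle content of the libraries. Myh11, the smooth muscle myosin heavy chain, was at 298 to 463 CPM (counts scaled by normalised library size) in 12 libraries, called muscle-rich here, and at 3.22 to 20.5 CPM in the other 10, called muscle-poor. Of the muscle-rich libraries 7 are labelled IEC, and of the muscle-poor ones 7 are labelled ileum. There were 3 muscle-rich libraries in each condition. In the muscle-poor kind there were 2 for GRWT on water, 2 for GRWT on zinc, 3 for GRDim on water and 3 for GRDim on zinc. Within the muscle-rich kind the GRDim water libraries are all labelled IEC and the GRDim zinc libraries are all labelled ileum, whereas both GRWT groups hold 2 IEC libraries and 1 ileum library. In the muscle-poor kind the GRDim zinc libraries are all labelled IEC and the other 7 are labelled ileum. In GRDim mice of either kind, zinc and tissue label therefore cannot be told apart within the genotype. Whether tissue labels were exchanged in part of the series was not tested, and genotype and drinking water were used as labelled. The series' design text also names dexamethasone, a synthetic glucocorticoid, as a treatment and 2 sets of sequencing, but no sample label names either. Whether any library differs in them was not tested. A 1 or 2 in the sample titles follows the tissue label, and what it stands for is not stated. Comparisons were therefore made within each kind of library.

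Library totals ran from 13149951 to 15620744 counts. The lowest count of any of the 8 genes in any library was 94, for H2-Eb1, so depth was no limit for them. GRWT zinc ileum replicate 3, a muscle-poor library, stood apart. Fabp6, the bile acid binding protein of the ileum, was at 18.2 CPM there and at 10120 CPM in the other muscle-poor GRWT zinc library. Normalisation also raised its values, since 22067 counts of Cd74 gave 2348 CPM there and 29785 counts gave 2278 CPM in that other library. Their totals were 14605128 and 14168596 counts. GRWT zinc ileum replicate 1, a muscle-rich library, had a summed level of 10 B cell markers of 289 CPM, against 11.2 to 40.7 CPM in the other 11 muscle-rich libraries. The labels do not say whether replicates came from separate animals, so p-values measure only the spread between these libraries.

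The class II cluster lies on mouse chromosome 17 in build GRCm38 (mm10), where the deposited counts were made. H2-DMa spans chr17:34119541-34139101, H2-DMb2 chr17:34143307-34151555, H2-DMb1 chr17:34153072-34160230, H2-Ab1 chr17:34257689-34269419, H2-Aa chr17:34282744-34287823 on the minus strand and H2-Eb1 chr17:34305867-34316674. Ciita is on chr16:10480059-10528418 on the plus strand, as are the others except H2-Aa. Cd74 lies outside the cluster too. Ciita shares 329 exon bases with Dexi, and H2-DMa shares 360 with Brd2, both on the opposite strand. The strand setting of the counting is not stated, so reads from these stretches are uncertain, and Dexi and Brd2 themselves were called in none of the within-kind comparisons of genotype and zinc. H2-DMb1 and H2-DMb2 are near-identical copies. Reads that map to both were left out of the counts, so how they split is uncertain.

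The promoter windows of 3 genes are shown as examples of the sequence through which Ciita is known to act on class II genes, with both the X and the Y box core matched in H2-Eb1 and H2-DMb2 and the Y box core alone in H2-Aa. They come from RefSeq promoters of GRCm38.p6, which cover 250 bases before to 50 bases after the RefSeq gene start and held 5 of the 8 genes (H2-Aa, H2-Eb1, H2-DMa, H2-DMb1 and H2-DMb2). Each window of 63 bases is written from 5′ to 3′ on the strand of its gene, with the letters searched in capitals (GATTGG for the Y box core and AACNNNTGA for the X box core). The windows are chr17:34287855-34287917 on the minus strand, chr17:34305762-34305824 on the plus strand and chr17:34145113-34145175 on the plus strand, in this order:
H2-Aa: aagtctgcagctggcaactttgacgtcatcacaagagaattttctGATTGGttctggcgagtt
H2-Eb1: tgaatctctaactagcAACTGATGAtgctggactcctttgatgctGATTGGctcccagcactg
H2-DMb2: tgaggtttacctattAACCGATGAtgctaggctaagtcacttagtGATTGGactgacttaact

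The Y box core starts 49 bases before the RefSeq start in H2-Aa, 60 before it in H2-Eb1 and 91 before it in H2-DMb2. For H2-DMb2 that RefSeq start lies 1942 bases downstream of the start of the gene span given above, so its window is inside that span. In H2-Eb1 the X box core starts 29 bases upstream of the Y box core, and in H2-DMb2 it starts 30 bases upstream. H2-DMb1 holds both at the same spacing of 30 bases, and H2-DMa holds a Y box core in 1 of its 2 promoter entries. GATTGG alone was found on either strand in 16.1% of 32851 promoters of 300 bases and AACNNNTGA in 11.9%. Both in this order, with 15 to 35 bases between their starts, were found in 31 promoters (0.0944%). The letters were chosen after the sequences had been seen, the patterns do not overlap, and a match describes the sequence only.

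All 8 genes were expressed in every library, and the levels moved together. Per kilobase of exon, in the 3 muscle-poor GRDim water libraries, Cd74 was the most abundant at 1757 ± 130 RPKM (mean ± SD). H2-Ab1 followed at 389 ± 23.2 RPKM and H2-Aa at 315 ± 11.8 RPKM. H2-DMa at 53.2 ± 1.11 RPKM and H2-DMb1 at 53.0 ± 3.01 RPKM did not differ beyond their spread. Below them came H2-DMb2 at 35.7 ± 0.212 RPKM, H2-Eb1 at 30.2 ± 0.765 RPKM and Ciita at 18.6 ± 0.204 RPKM. The mice are not of the reference strain, and class II genes are polymorphic. How many reads were lost through this was not tested, so the order between genes is approximate. Comparisons of 1 gene between libraries follow.

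**Figure D1:**
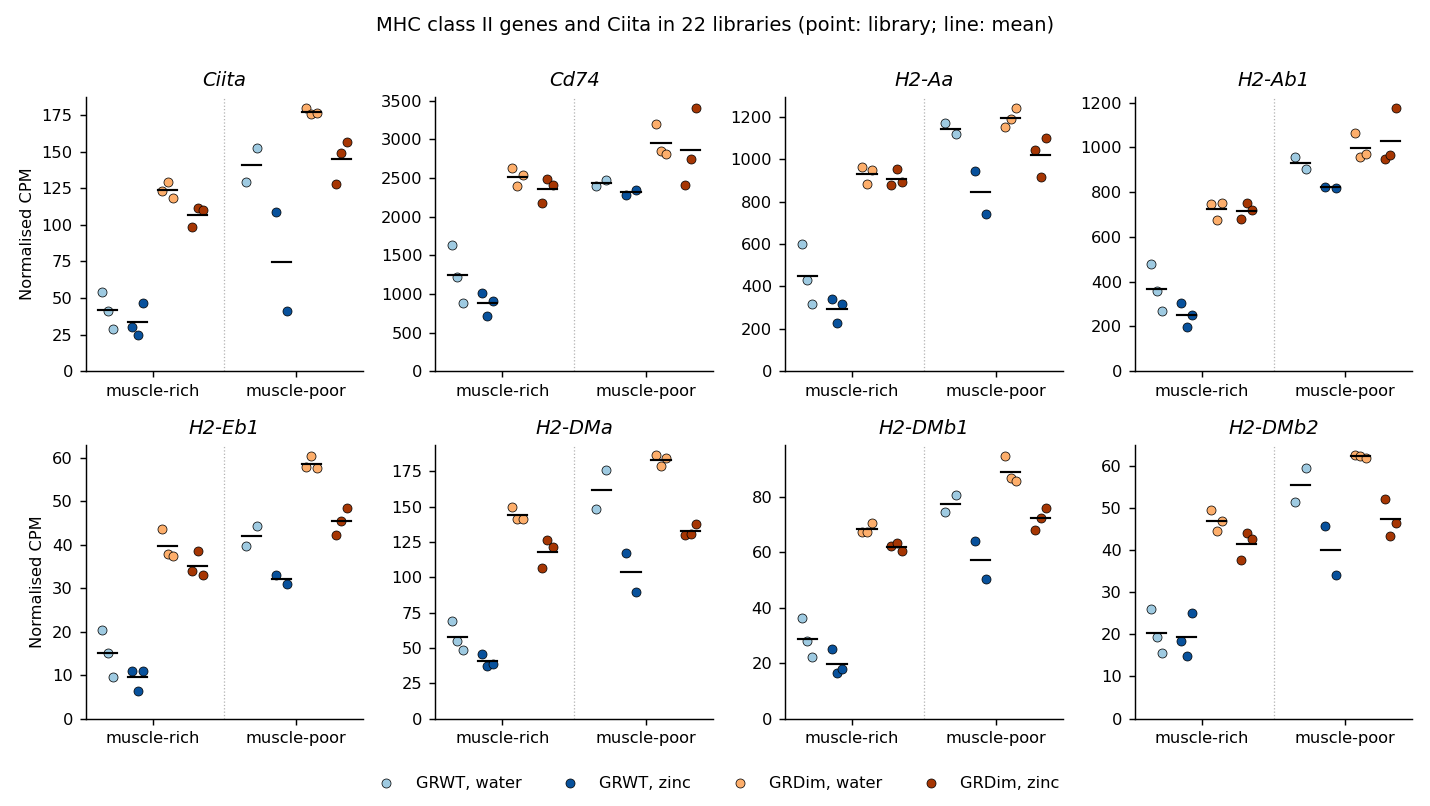
Normalised CPM (y axis, linear from 0) of the 8 genes in each of 22 libraries, with muscle-rich libraries on the left and muscle-poor ones on the right of each panel, coloured by genotype and drinking water. Points are libraries and lines are group means. For all 8 genes the 6 muscle-rich GRWT libraries lie below the 6 muscle-rich GRDim libraries. Every GRWT muscle-poor library but 1 for Ciita lies above the muscle-rich GRWT libraries on this scale. Normalisation raised the values of GRWT zinc ileum replicate 3, a muscle-poor library.

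Every gene was lowest in the same library, GRWT zinc IEC replicate 5, which is muscle-rich. The ratio of the highest to the lowest library was 9.34 for H2-Eb1, 7.31 for Ciita, 6.01 for H2-Ab1, 5.77 for H2-DMb1, 5.45 for H2-Aa, 4.99 for H2-DMa, 4.79 for Cd74 and 4.24 for H2-DMb2. Summed over the 8 genes, the level ran from 1235 to 4769 CPM in the muscle-rich libraries and from 4154 to 6153 CPM in the muscle-poor ones.

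Class II RNA was lower in the muscle-rich libraries. Averaged over the 4 conditions, 6 of the 8 genes were called lower in the muscle-rich libraries (edgeR quasi-likelihood test over all 22 libraries, Benjamini-Hochberg adjusted p under 0.05 and log2 fold change beyond 0.8). Of all 16389 genes tested, 24.9% were called in either direction and 3.97% were called lower. The log2 fold changes were -1.04 ± 0.10 (SE) for H2-Eb1, -1.01 ± 0.09 for H2-Ab1, -0.97 ± 0.15 for Ciita, -0.89 ± 0.08 for H2-DMb1, -0.85 ± 0.09 for H2-Aa and -0.84 ± 0.06 for H2-DMa. Cd74 at -0.72 ± 0.09 and H2-DMb2 at -0.77 ± 0.09 stayed inside the fold threshold. Adjusted p-values (edgeR) ran from 1.26e-09 to 1.51e-05, and the median of the 8 genes was -0.87, against 0.02 for all genes. Scaling by library totals alone moved the median of all genes to 0.27 and that of the members to -0.61, with all 8 still negative and none beyond 0.8.

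Most markers of the professional antigen-presenting cells went the other way between the kinds of library. Of 10 macrophage markers 9 were higher in the muscle-rich libraries, with a median log2 fold change of 4.26, and their summed level was 285 to 525 CPM against 33.0 to 58.2 CPM. The largest changes were 4.98 ± 0.25 for Adgre1, 4.78 ± 0.12 for Cx3cr1 and 4.71 ± 0.15 for C1qa, a subunit of complement C1q. Of 10 dendritic cell markers 9 were higher (median 3.38), with 5.13 ± 0.87 for Ccr7, 5.08 ± 0.44 for Batf3 and 4.82 ± 0.27 for Xcr1. Itgae, which intraepithelial T cells also express, was lower at -0.89 ± 0.12. The summed level of all 10 overlapped, at 33.3 to 95.6 CPM in muscle-rich and 33.0 to 68.2 CPM in muscle-poor libraries, and in GRWT mice on water it was 33.3 to 45.4 CPM in muscle-rich and 40.2 and 59.8 CPM in muscle-poor libraries. Itgae made up most of the muscle-poor sums, since the 9 other markers summed to 21.8 to 39.9 CPM against 1.77 to 5.11 CPM, a split made after the values were seen. Of 9 B cell markers tested 7 were higher (median 2.99), led by Cd79a at 5.51 ± 0.54, and their summed level was 11.2 to 289 CPM against 1.16 to 12.8 CPM. Of 5 markers of plasma cells, which are not counted among these presenting cells, 4 were higher, led by Jchain at 7.15 ± 0.22.

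In the muscle-poor libraries, where the 8 genes were higher on average, several defining markers of dendritic cells and B cells were at or under the floor of 3 counts. Batf3, a transcription factor of conventional dendritic cells, was at or under it in all 10 muscle-poor libraries, as was the plasma cell receptor Tnfrsf17. Of 10 B cell markers, Pax5 and Cr2 among them, 6 were at or under it in both muscle-poor GRWT water libraries, 8 in the GRWT zinc ones, 5 in the GRDim water ones and 0 in all GRDim zinc ones. For the 10 dendritic cell markers these numbers were 4, 5, 3 and 3, and for the 10 macrophage markers 0 in every condition. T cell markers gave no single direction, with 2 of 10 higher in the muscle-rich libraries (Cd2 and Cd4) and 4 lower, Cd8a at -1.25 ± 0.15 among them. Epithelial markers were summed at 16345 to 21060 CPM in muscle-rich and 25493 to 41994 CPM in muscle-poor libraries, with a median of -0.50, and 2 of 10 were called lower (Fabp2 and Vil1, at -0.84 each). In bulk tissue, fewer cells of a type and less RNA per cell cannot be told apart.

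**Figure D2:**
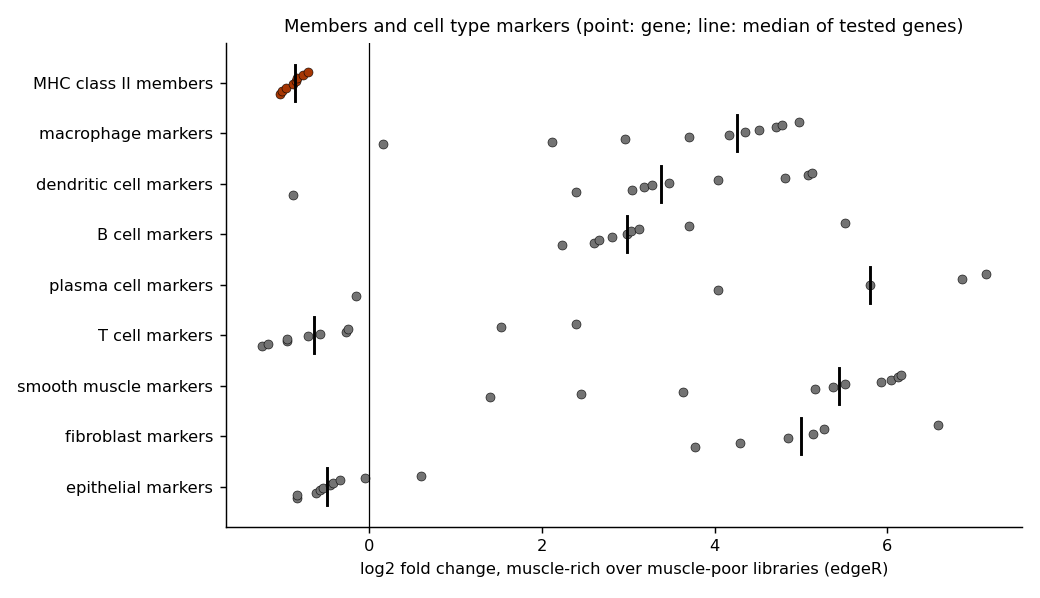
Log2 fold change of muscle-rich over muscle-poor libraries (x axis, edgeR estimate) for the 8 genes and for tested genes of cell type marker lists (rows). Points are genes and vertical lines are medians. The 8 genes lie between -1.04 and -0.72, while the medians of macrophage, dendritic cell, B cell and plasma cell markers lie between 2.99 and 5.80.

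Of 4 class II loci outside the 8 genes, 3 were called higher in the muscle-rich libraries. H2-Ob at 3.48 ± 0.42, H2-Eb2 at 3.25 ± 0.41 and H2-Oa at 1.55 ± 0.35 passed, and the fourth, the pseudogene H2-Ea-ps, was negative like the 8 genes, at -0.47 ± 0.19, inside the fold threshold. H2-Oa and H2-Ob encode H2-O, a modulator of H2-DM known from B cells and dendritic cells. Of the endosomal processing genes, 3 of 8 were higher in the muscle-rich libraries, namely March1, an E3 ligase of antigen-presenting cells, at 4.48 ± 0.24, and the proteases Ctsl at 2.38 ± 0.12 and Lgmn at 1.33 ± 0.07. None of the 7 genes of the RFX, NF-Y and CREB complex was called, and Rfx5 was at 0.06 ± 0.10. Genes of the interferon-gamma pathway (8 in the list) summed to 1073 to 1302 CPM in muscle-rich and 1347 to 1906 CPM in muscle-poor libraries. This difference had the same direction as that of the 8 class II genes. Of 5 costimulation genes 3 were higher, namely Cd86, a ligand of CD28, at 4.33 ± 0.28, Cd40 at 2.10 ± 0.31 and Cd80 at 0.93 ± 0.21. Cd274, which encodes PD-L1, was lower at -0.87 ± 0.22.

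The gap between the kinds of library was also read within each genotype. In GRWT mice all 8 genes were called lower in the muscle-rich libraries, on water (log2 fold changes -0.97 to -1.76, with 21.8% of all genes called in either direction) and on zinc (-1.05 to -1.75, with 30.2% called). In GRDim mice none of the 8 was called on water (-0.23 to -0.56, with 20.6% of all genes called) or on zinc (-0.17 to -0.52, with 20.5% called). Without the fold threshold, 3 genes were under an adjusted p of 0.05 (edgeR) in GRDim mice on water (H2-Ab1, H2-Eb1 and H2-DMa) and 1 on zinc (H2-Ab1). The test of this difference is given after the comparisons of genotype.

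In muscle-rich libraries on water, all 8 genes were higher in GRDim than in GRWT mice. Ciita was at 54.4, 41.1 and 29.1 CPM in the 3 GRWT libraries and at 123, 129 and 118 CPM in the 3 GRDim libraries. H2-DMa was at 69.1, 54.7 and 48.8 CPM in GRWT and at 149.6, 141 and 141 CPM in GRDim. The groups were well apart for both genes, and the GRWT libraries varied more than the GRDim ones.

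H2-Ab1 was at 478, 357 and 268 CPM in GRWT and at 748, 675 and 749.9 CPM in GRDim libraries. Cd74 was at 1627, 1214 and 884 CPM in GRWT and at 2625, 2395 and 2538 CPM in GRDim. H2-Eb1 was at 20.5, 15.1 and 9.55 CPM in GRWT and at 43.6, 37.9 and 37.6 CPM in GRDim. For these genes, too, every GRDim library lay above every GRWT library, and the same held for H2-Aa, H2-DMb1 and H2-DMb2.

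By edgeR all 8 genes passed the test on water, where 10.5% of 15947 genes were called in either direction and 5.02% were called higher. The log2 fold changes were 1.59 ± 0.25 for Ciita (adjusted p = 0.00125), 1.41 ± 0.25 for H2-Eb1 (adjusted p = 0.00185), 1.34 ± 0.11 for H2-DMa (adjusted p = 3.04e-06) and 1.26 ± 0.17 for H2-DMb1 (adjusted p = 0.000291). Smaller ones were seen for H2-DMb2 at 1.22 ± 0.20, H2-Aa at 1.07 ± 0.21, Cd74 at 1.04 ± 0.19 and H2-Ab1 at 0.99 ± 0.20. Their median was 1.24, and that of all genes was -0.0028. Groups without overlap, higher in GRDim, were found for 8 of 8 members and for 26.4% of all genes.

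On zinc, the same comparison used other libraries throughout. In GRWT mice on zinc Ciita was at 30.1, 24.5 and 46.3 CPM, and in GRDim mice on zinc it was at 98.6, 111 and 110.1 CPM. Cd74 was at 1011, 712 and 909 CPM in GRWT and at 2181, 2485 and 2413 CPM in GRDim libraries. H2-Eb1 was at 10.9, 6.46 and 11.1 CPM in GRWT and at 34.0, 38.5 and 33.1 CPM in GRDim. The groups did not overlap for any of the 8 genes, where 17.5% of all genes had GRDim above GRWT without overlap.

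All 8 genes again passed the edgeR test, against 4.4% of all genes in either direction and 2.43% higher. H2-Eb1 rose most in GRDim, by 1.87 ± 0.26 on the log2 scale (adjusted p = 0.00143), followed by Ciita at 1.65 ± 0.25 (adjusted p = 0.00297), H2-DMb1 at 1.63 ± 0.18 and H2-Aa at 1.61 ± 0.22. H2-DMa was at 1.53 ± 0.11 (adjusted p = 3.99e-06), H2-Ab1 at 1.50 ± 0.20, Cd74 at 1.41 ± 0.19 and H2-DMb2 at 1.08 ± 0.20. The median was 1.57, and that of all genes was -0.02. GRWT zinc ileum replicate 1, the library with many B cell transcripts, was the highest of the 3 muscle-rich GRWT zinc libraries for Ciita, H2-Eb1 and H2-DMb2, and all 8 calls remained without it.

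Other RNA moved with genotype in the muscle-rich libraries. On water, 9 of 10 T cell markers were higher in GRDim mice, led by Cd5 at 3.26 ± 0.55, and their summed level was 388 to 466 CPM in GRDim against 64.0 to 103 CPM in GRWT. On zinc 5 of 10 were higher, led by the granule protease Gzma at 2.16 ± 0.18, with sums of 220 to 224 CPM against 58.9 to 112 CPM. Plasma cell markers were higher for 4 of 5 on water and 4 of 5 on zinc. Of 10 macrophage markers none was called in either comparison, with summed levels of 479 to 525 CPM in GRDim and 285 to 361 CPM in GRWT on water, and 340 to 453 against 297 to 470 CPM on zinc. None of 7 B cell markers tested was called in either, but on water 7 of 7 were positive (median 0.98) and the sums did not overlap, at 35.1 to 40.7 CPM in GRDim and 13.6 to 16.2 CPM in GRWT. On zinc the B cell sums were 24.6 to 33.5 CPM in GRDim and 11.2 to 289 CPM in GRWT libraries. Pan-leukocyte markers were higher for 2 of 5 on water, with sums of 278 to 301 CPM in GRDim and 97.8 to 122 CPM in GRWT, and for 0 of 5 on zinc, with 182 to 225 against 87.0 to 361 CPM. Of 10 dendritic cell markers 2 were higher on water, namely Itgae at 2.01 ± 0.11 and Xcr1 at 1.43 ± 0.24, and on zinc Itgae alone was higher. Their sums did not overlap, at 92.6 to 95.6 CPM in GRDim and 33.3 to 45.4 CPM in GRWT on water, and 66.7 to 77.4 against 34.5 to 54.1 CPM on zinc. Without Itgae they were 37.0 to 39.9 against 21.8 to 30.3 CPM on water, and overlapped on zinc at 30.3 to 32.9 against 22.4 to 39.7 CPM. Epithelial markers summed to 16345 to 17580 CPM in GRDim and 19094 to 19984 CPM in GRWT libraries on water, and Fabp2 was lower by 1.37 on the log2 scale there. Smooth muscle markers were positive for 0 of 10 on water (median -0.43, none called), with sums of 1754 to 1984 CPM in GRDim and 2306 to 2524 CPM in GRWT. On zinc 1 of 10 was positive (median -0.24), and the sums overlapped, at 1548 to 1986 against 1676 to 2210 CPM. The part of these transcripts in the class II difference was not tested.

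Of the muscle-rich libraries on water, those labelled IEC alone gave the same order, since the 2 GRWT ones were at 41.1 and 54.4 CPM for Ciita and the 3 GRDim ones were at 118 to 129 CPM. Of the muscle-rich libraries on zinc, the 1 GRWT library labelled ileum was at 46.3 CPM for Ciita and 909 CPM for Cd74, and the 3 GRDim ones, also labelled ileum, were at 98.6 to 111 CPM and 2181 to 2485 CPM. The other 2 GRWT zinc libraries labelled ileum are muscle-poor, at 109 and 40.8 CPM for Ciita and 2278 and 2348 CPM for Cd74, so by label alone, across both kinds, the genotypes overlapped. With the tissue label as a term in the muscle-rich fit, added after the data were seen, all 8 genes were still called higher in GRDim on water (median 1.19) and on zinc (median 1.68), with edgeR adjusted p-values up to 0.0287. The label term rests on the GRWT libraries. A fit of all 22 libraries with the tissue label in place of the muscle split called none of the 8 genes on water or on zinc, with member medians of 0.77 and 1.06.

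**Figure D3:**
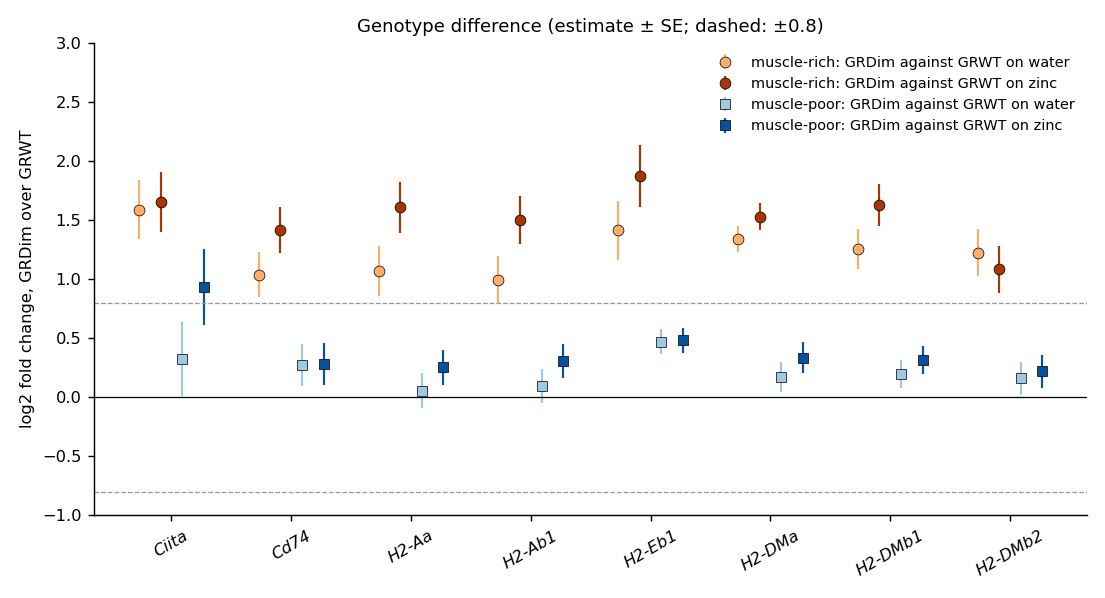
Log2 fold change of GRDim over GRWT (y axis, edgeR estimate ± SE) for each of the 8 genes (x axis), in muscle-rich (circles) and muscle-poor libraries (squares), on water and on zinc. Dashed lines mark the fold threshold of 0.8. The muscle-rich estimates run from 0.99 to 1.87 and the muscle-poor ones from 0.06 to 0.93.

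In muscle-poor libraries none of the 8 genes was called between genotypes. On water Ciita was at 129.6 and 153 CPM in the 2 GRWT libraries and at 179, 176 and 176 CPM in the 3 GRDim libraries. H2-Ab1 was at 957 and 904 CPM in GRWT and at 1066, 957 and 970.4 CPM in GRDim. H2-Eb1 was at 39.8 and 44.3 CPM in GRWT and at 58.0, 60.4 and 57.7 CPM in GRDim. Groups overlapped for H2-Ab1 and H2-Aa, and the 6 other genes were higher in all GRDim libraries, as were 21% of all genes.

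The log2 fold changes on water ran from 0.06 ± 0.15 for H2-Aa to 0.47 ± 0.10 for H2-Eb1, with edgeR adjusted p-values of 0.393 to 0.996. All 8 were positive, 1 had an unadjusted p under 0.05 (H2-Eb1), DESeq2 also called none, and 0.0288% of 13908 genes were called. The 95% interval was 0.24 to 0.70 for H2-Eb1, -0.39 to 1.03 for Ciita and -0.28 to 0.39 for H2-Aa, and the upper bound of each of the 8 genes lay below the estimate of that gene in the muscle-rich libraries.

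On zinc, Ciita was at 109 and 40.8 CPM in the muscle-poor GRWT libraries and at 128, 149 and 157 CPM in the GRDim ones. Cd74 was at 2278 and 2348 CPM in GRWT and at 2414, 2748 and 3412 CPM in GRDim. The low Ciita value is that of GRWT zinc ileum replicate 3. The GRWT zinc libraries are labelled ileum and the GRDim ones IEC, so genotype and label cannot be told apart here. None of the 8 genes was called by edgeR or DESeq2, 4 had an unadjusted p under 0.05, and 0.0575% of all genes were called. Estimates ran from 0.22 ± 0.14 for H2-DMb2 to 0.93 ± 0.32 for Ciita (adjusted p = 0.157). Groups did not overlap for 6 of 8 genes, higher in GRDim, against 15.3% of all genes.

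The difference between the genotype effects of the 2 kinds of library was tested directly. On water it passed for 2 of 8 genes, H2-DMa at 1.15 ± 0.18 (edgeR adjusted p = 0.0021) and H2-DMb1 at 1.04 ± 0.22 (adjusted p = 0.0282), where 1.31% of all genes passed. The other 6 estimates were 0.74 to 1.25, with adjusted p-values (edgeR) of 0.0522 to 0.216. On zinc 6 of 8 passed, against 2.87% of all genes, with 1.38 ± 0.30 for H2-Eb1, 1.35 ± 0.26 for H2-Aa, 1.31 ± 0.23 for H2-DMb1, 1.19 ± 0.25 for H2-Ab1, 1.19 ± 0.18 for H2-DMa and 1.12 ± 0.26 for Cd74. Ciita at 0.72 ± 0.41 and H2-DMb2 at 0.86 ± 0.26 did not pass. These counts moved with the processing. On water 1 gene passed under scaling by library totals and 1 to 6 when single libraries were left out, with 1 without any one of the 3 muscle-rich GRDim water libraries and 6 without GRWT water IEC replicate 4 or without GRWT zinc ileum replicate 3, and on zinc 3 passed without GRWT zinc ileum replicate 3 and none under scaling by library totals.

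Zinc lowered none of the 8 genes by the thresholds used, although most estimates were negative. In muscle-rich GRWT libraries they ran from -0.06 ± 0.20 for H2-DMb2 to -0.65 ± 0.27 for H2-Eb1, with a median of -0.52 against 0.01 for all genes. H2-DMa was at 69.1, 54.7 and 48.8 CPM on water and at 45.6, 37.3 and 38.7 CPM on zinc, the only one of the 8 genes whose groups did not overlap (7.35% of all genes were lower without overlap). Its log2 fold change was -0.50 ± 0.11 (edgeR adjusted p = 0.105). Of the 8 genes 6 had an unadjusted p under 0.05, DESeq2 called none, and 0.163% of all genes were called.

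In muscle-poor GRWT libraries, the 2 zinc libraries lay below both water libraries for 8 of 8 genes, where 20.2% of all genes were lower without overlap. H2-DMa was at 148.0 and 176 CPM on water and at 117.5 and 89.8 CPM on zinc, a log2 fold change of -0.63 ± 0.14 (edgeR adjusted p = 0.228). Ciita had the lowest estimate at -0.90 ± 0.35 (adjusted p = 0.259, edgeR), with 129.6 and 153 CPM on water and 109 and 40.8 CPM on zinc. The median was -0.42, 6 of the 8 genes had an unadjusted p under 0.05, DESeq2 called none, and 0.0431% of all genes were called. Without GRWT zinc ileum replicate 2, which leaves only the library that stood apart, 2 genes were called lower, Ciita at -1.76 and H2-DMa at -0.82, with that lone library assumed to vary like the other groups. Without replicate 3, the library that stood apart, none was called, and the estimates were -0.38 for Ciita and -0.47 for H2-DMa, with a median of -0.28 over the 8 genes. Markers of some other cells also had negative estimates with zinc in GRWT mice, with none called. In muscle-poor libraries 9 of 10 smooth muscle markers (median -0.89) and 6 of 6 fibroblast markers (median -0.90) were negative, with fibroblast sums of 34.1 and 56.2 CPM on water and 15.1 and 27.6 CPM on zinc, while the smooth muscle sums overlapped, at 235 and 285 against 211 and 331 CPM. In muscle-rich ones 10 of 10 (median -0.32) and 6 of 6 (median -0.34) were. Other lists went up in muscle-rich libraries, with none called: pan-leukocyte markers for 5 of 5 (median 0.75) and B cell markers for 7 of 7 tested (median 2.56). Class II loci outside the 8 genes were positive for 4 of 4 (median 1.1) and T cell markers for 7 of 10 (median 0.27). GRWT zinc ileum replicate 1 is among these libraries. In muscle-poor ones these lists, in this order, were positive for 1 of 5, 0 of 3, 0 of 4 and 4 of 10. The part of all these markers in the class II values was not tested.

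In GRDim mice, where the tissue label changes with zinc in both kinds of library, none of the 8 genes was called either. The estimates ran from -0.04 ± 0.20 for H2-Ab1 to -0.31 ± 0.11 for H2-DMa in muscle-rich libraries, with a median of -0.18 in a comparison where 1.33% of all genes were called. In muscle-poor libraries they ran from 0.05 ± 0.13 for H2-Ab1 to -0.46 ± 0.11 for H2-DMa, with 0.0575% of all genes called. H2-DMa in these muscle-poor libraries was at 186, 179 and 184 CPM on water and at 129.7, 130.6 and 138 CPM on zinc, without overlap, and the same was seen for 6 of the 8 genes (12.8% of all genes). The 95% interval for H2-DMa was -0.54 to -0.07 in muscle-rich and -0.72 to -0.20 in muscle-poor GRDim libraries. Unadjusted p-values under 0.05 were found for 1 gene in muscle-rich GRDim libraries and for 4 in muscle-poor ones, and neither edgeR nor DESeq2 called any. With the tissue label as a term in the muscle-rich fit, 5 of the 8 GRDim estimates turned positive, and none was called. Leukocyte markers also had mostly negative estimates with zinc in GRDim mice. Of 10 T cell markers 10 were negative in muscle-rich GRDim libraries (median -0.65, with Gzma and the granule protease Gzmb called lower), with sums of 388 to 466 CPM on water and 220 to 224 CPM on zinc, and 10 were negative in muscle-poor ones (median -0.64, none called), with 283 to 484 against 165 to 245 CPM. Pan-leukocyte markers had medians of -0.53 and -0.64, with none called. Epithelial markers went the other way, with 10 of 10 positive in muscle-rich GRDim libraries (median 0.12, 1 called higher). Their sums were 16345 to 17580 CPM on water and 19455 to 20808 CPM on zinc. In muscle-poor ones 8 of 10 were positive (median 0.09), with 0 called. The part of all these markers in the class II values was not tested.

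No zinc by genotype interaction passed for the 8 genes. In muscle-rich libraries the estimates were -0.14 to 0.54, with 0.263% of all genes called, and in muscle-poor libraries 0.01 to 0.61, with 0% called. By edgeR none had an unadjusted p under 0.05 in either kind, and DESeq2 called none. The zinc effects of muscle-rich and muscle-poor libraries also differed for 0 of the 8 genes by edgeR and by DESeq2, with 0 at an unadjusted p under 0.05, in GRWT mice (0.0183% of all genes) and in GRDim mice (0%). The zinc comparisons and the genotype comparisons share libraries and are not independent of each other.

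**Figure D4:**
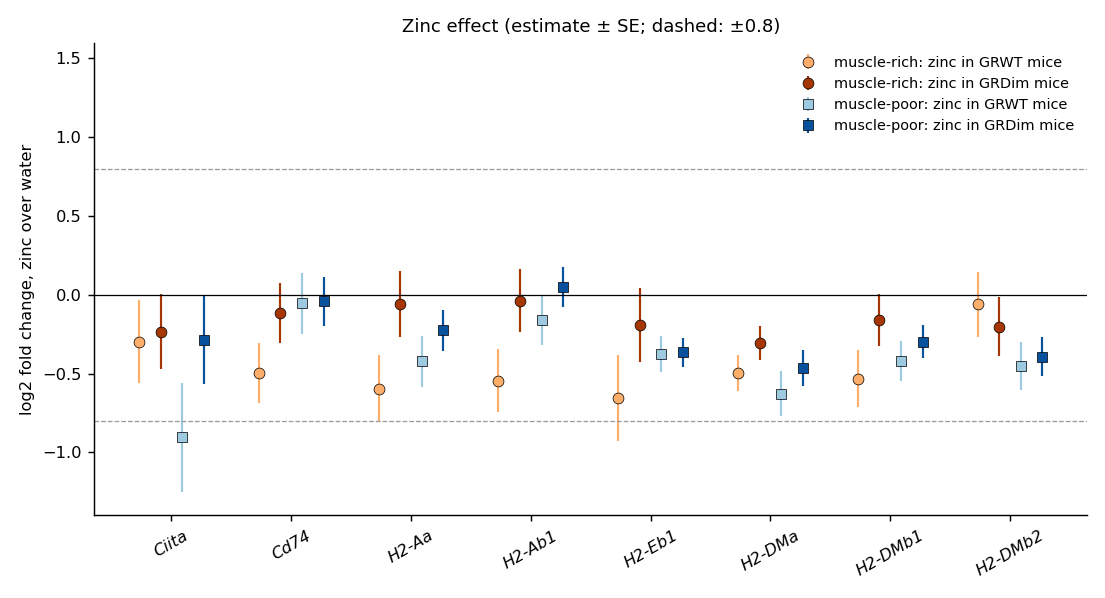
Log2 fold change of zinc over water (y axis, edgeR estimate ± SE) for each of the 8 genes (x axis), in GRWT and GRDim mice and in muscle-rich (circles) and muscle-poor libraries (squares). Dashed lines mark the fold threshold of 0.8. Of the 32 estimates 31 lie below 0, and Ciita in muscle-poor GRWT libraries is the only one beyond the threshold, with an adjusted p of 0.259.

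The inducing pathway was examined gene by gene. Irf1, a transcription factor induced by interferon-gamma, was at 174 to 227 CPM in muscle-rich GRWT water libraries and at 376 to 399 CPM in the GRDim ones, a log2 fold change of 0.99 ± 0.08 (edgeR adjusted p = 6.37e-07). On zinc Irf1 was at 145 to 155 CPM in GRWT and 281 to 329 CPM in GRDim libraries, at 1.03 ± 0.08 (edgeR adjusted p = 1.11e-06). The genotypes did not overlap on normal water or on zinc. In muscle-poor libraries Irf1 was at 0.06 ± 0.19 on water and -0.06 ± 0.19 on zinc, neither of which passed (adjusted p = 0.996 and 0.863, edgeR).

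Ifng, the gene of interferon-gamma itself, was near the limit of detection. Counts were 3, 1 and 1 in muscle-rich GRWT water libraries and 34, 16 and 30 in the GRDim ones, and 1, 0 and 1 in GRWT against 14, 14 and 11 in GRDim libraries on zinc. The GRWT counts are at or under the floor of 3, so no fold is given. In muscle-poor libraries on water Ifng had 5 and 13 counts in GRWT and 26, 18 and 18 in GRDim mice. On zinc it had 4 and 2 counts in GRWT and 4, 13 and 7 in GRDim libraries, where the lowest GRDim count equalled the highest GRWT count.

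Of the 8 interferon-gamma pathway genes, 4 were called higher in muscle-rich GRDim libraries on water and 4 on zinc. Socs1, the feedback inhibitor of the pathway, rose by 2.57 ± 0.18 on water and 1.61 ± 0.19 on zinc, and it fell by 1.10 with zinc in muscle-rich GRDim libraries. None of the 8 was called between genotypes in muscle-poor libraries. Of the 7 RFX, NF-Y and CREB genes none was called in any genotype comparison, and Rfx5 was at 0.56 ± 0.13 in muscle-rich libraries on water, inside the fold threshold. Of 8 endosomal processing genes none was called either, with Ctss at -0.03 ± 0.07 and Ifi30 at -0.10 ± 0.07 in muscle-rich libraries on water. Costimulation genes were higher in GRDim for 4 of 5 on water, led by Cd274 at 2.83 ± 0.26, and Cd274 alone was called on zinc, at 2.79 ± 0.27. The class II loci outside the 8 genes were positive for 4 of 4 in muscle-rich GRDim libraries on water (median 0.95, 1 called). On zinc they parted from the 8 genes, with 1 of 4 positive (median -0.43) and 0 called.

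Genes whose levels were most like those of the 8 genes were ranked over the 22 libraries, after the mean of each kind of library had been subtracted from log2(CPM + 1). Of 13891 genes, the 10 most alike that are not members included Ubd (Pearson's r = 0.964), Igtp (0.953), Apol10c-ps (0.951), Upp1 (0.949), Irgm2 (0.949), Tap1 (0.946), Zbp1 (0.945), Psmb9 (0.944) and Ifi47 (0.944). The members themselves correlated with their own mean at 0.943 for Ciita to 0.991 for H2-Eb1. Igtp, Irgm2 and Ifi47 are GTPases known to be induced by interferon-gamma, Tap1 and Psmb9 belong to the class I pathway, and both lie on chromosome 17 in the MHC. These correlations describe 22 libraries that share 4 conditions.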

How the data were processed

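The members and gene lists were chosen with earlier results of these data known. Per the study's methods and the submitters' processing notes, the authors prepared stranded libraries for single-end sequencing, aligned the reads to mm10 with HISAT2 2.0.4 and used featureCounts, leaving multimapping reads out. Deposited values are raw counts per gene. The annotation release and strand setting are not given in the sources used here. Identifiers were matched to GENCODE vM21 (54809 of 54838 found). Of the GRDim water ileum columns, 2 carry the same name and were used without replicate numbers.

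edgeR 4.0.16 in R 4.3.3 was run with TMM normalization, filterByExpr and robust quasi-likelihood F tests, on 12 muscle-rich and 10 muscle-poor libraries (Myh11 over or at most 100 CPM) apart, each with 4 conditions, and on all 22 libraries in 8 groups. This tested 15947, 13908 and 16389 genes. Benjamini-Hochberg adjustment covered every gene of a fit. Genes were called at an adjusted p under 0.05 and a log2 fold change beyond 0.8, and interactions and differences on the adjusted p alone. CPM are TMM-normalised, except for Myh11, which was scaled by library totals, and RPKM divide them by annotated exon length. DESeq2 1.42.0, other scalings and filters, each library left out and other designs were alternatives. The pipeline was tested on simulated data. Named were all members, Irf1, Ifng and Rfx5, up to 3 called genes of each list and comparison with the largest change, and the 10 genes most like the members, of which 1 gene, also on a list, is not reported here. Intervals and floors cover counting error or the spread between libraries only.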

Additional observations from a re-analysis of the deposited data

Results flagged for a closer look

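Ciita in GRWT zinc ileum replicate 2, at 109 CPM, lay far above the other 4 GRWT zinc libraries, at 24.5 to 46.3 CPM. These 5 libraries pool 3 muscle-rich and 2 muscle-poor ones, whose Ciita levels differ. Replicate 2 was nearer to the muscle-poor GRWT water libraries, at 129.6 and 153 CPM, than the other muscle-poor GRWT zinc library, replicate 3, at 40.8 CPM. It was the only one of 32 groups of a gene and a condition with a library apart by Dixon's criterion, which chance meets in about 1 of 20 groups.

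The genotype difference (GRDim over GRWT) differed between muscle-rich and muscle-poor libraries by an edgeR test of the difference. On water the log2 difference was 1.15 for H2-DMa and 1.04 for H2-DMb1. On zinc it was 1.12 for Cd74, 1.35 for H2-Aa, 1.19 for H2-Ab1, 1.38 for H2-Eb1, 1.19 for H2-DMa and 1.31 for H2-DMb1.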

How the results depend on the processing

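The 8 calls between genotypes in muscle-rich libraries, on water and on zinc, were made under DESeq2, DESeq2 size factors, library totals, both filters and without any single library, a range of 8 to 8. The fit of all 22 libraries in 8 groups also gave 8 and 8. Fits of all 22 with a covariate gave other counts, and the cause was not tested. With the muscle split as covariate 2 members were called on water and 7 on zinc, and with the tissue label 0 on water and 0 on zinc. With 8 groups, 1 was called between genotypes in muscle-poor libraries on zinc (Ciita). Scaled by library totals, 0 were called between muscle-rich and muscle-poor libraries, and the difference of the genotype effects passed for 1 on water and 0 on zinc. DESeq2 passed 5 on water. H2-Ab1 with zinc in muscle-rich GRDim libraries turned to 0.0100 with the muscle split and 0.0925 with the tissue label. With the tissue label in the muscle-rich fit, an alternative chosen after seeing the data, the GRDim zinc estimates turned to 0.16 for Cd74, 0.19 for H2-Aa, 0.25 for H2-Ab1, 0.0821 for H2-Eb1 and 0.22 for H2-DMb1, and the 8 genotype calls on water and on zinc remained. Leaving out each library in turn, members called numbered 4 to 7 between muscle-rich and muscle-poor libraries (4 without GRWT zinc ileum replicate 2), 1 to 6 and 3 to 6 for the difference of genotype effects on water and on zinc, and 0 to 1 for that of zinc effects in GRWT mice. In muscle-poor libraries they numbered 0 to 2 for zinc in GRWT mice, 0 to 1 for genotype on zinc (Ciita) and 0 to 1 for the interaction, each high value without GRWT zinc ileum replicate 2. Log2 estimates changed sign for H2-DMb2 with zinc in muscle-rich GRWT libraries (-0.29 to 0.15), for Cd74 (-0.19 to 0.0670) and H2-Ab1 (-0.0584 to 0.11) with zinc in muscle-poor GRDim libraries, and for the Ciita difference of genotype effects on zinc (-0.17 to 1.21). With the replicate number as a block and the muscle split, over 20 numbered libraries, 8 members were called between genotypes on water and 7 on zinc, and H2-Ab1 with zinc in GRDim mice was at -0.27. Of 25 same-numbered pairs 1 correlated above 0.1 (-0.11 to 0.12) after the means of small groups were subtracted. This check cannot exclude that the numbers pair samples. Each muscle-poor GRWT group holds 2 libraries, and their power was not measured.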
